A study of Mus musculus with 24 samples.

Results

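The addition of a low dose of rosiglitazone to an obesogenic high-fat diet was examined in the gastrocnemius, a mixed hind-limb muscle, by comparing 8 arrays of cHF+ROSI mice with 8 arrays of cHF mice, 16 of the 24 arrays of the series. All animals were male C57BL/6N mice that entered the dietary treatment at 3 months of age and stayed on it for 8 weeks. The cHF diet was based on corn oil and contained 35% lipid by weight, and the cHF+ROSI diet differed from it by 10 mg of rosiglitazone added to each kg. Both groups were first fasted for 10 hours in the light phase and then re-fed Chow overnight before dissection, so that the muscles were taken in the re-fed state and not on the high-fat diet itself. A further group of 8 mice (cHF+F, the same diet with n-3 fatty acids) entered the statistical model only through the shared estimate of the spread. On each two-colour array the Cy5 dye carried the RNA of 1 mouse and the Cy3 dye a reference pool that was the same on all arrays and that also contained RNA of mice given 100 mg rosiglitazone per kg. The dyes were never swapped. Each of the 8 slides held 1 array of each group with the same replicate number, always at the same place, so that the diet and the place on the slide cannot be told apart.

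Rosiglitazone is an insulin-sensitising drug of the thiazolidinedione class, which binds the nuclear receptor PPARγ. PPARγ is most abundant in adipocytes, where it drives fat storage, whereas in skeletal muscle the related receptors PPARα and PPARδ are the main forms, and fatty acids switch on the genes for their own uptake and oxidation through them. During fasting, FOXO transcription factors and PPARs together raise genes that spare glucose and break down protein, and insulin after a meal turns these genes down again. The muscle genes asked about here therefore belong to fuel choice (Pdk4, Ucp3), β-oxidation, protein breakdown and protein synthesis, and further to the vessels, matrix and blood cells that are part of any muscle piece. In a whole muscle, fewer cells of one type and less RNA per cell cannot be told apart.

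With adjustment for multiple testing, limma called 0 of 15958 probes (0%) as different between cHF+ROSI and cHF at 0.05, and the smallest adjusted p was 0.0876. At an unadjusted limma p under 0.05 there were 1632 probes (10.2% of those tested), of which 585 (3.67%) were higher and 1047 (6.56%) were lower in the cHF+ROSI mice. Only 22 probes (0.138%) also differed by at least 1.5-fold, 19 (0.119%) of them higher and 3 (0.0188%) lower. Within slides, 91 of 15747 probes (0.578%) were higher in the cHF+ROSI mouse on all 8 slides, and 165 (1.05%) were lower on all 8. All differences below are therefore given with unadjusted p-values of limma, and the words higher and lower describe the measured values. Counted by gene, with the brightest probe for each of 10435 symbols, 352 genes (3.37%) were higher and 717 (6.87%) lower at an unadjusted p under 0.05.

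With the slide in the model, the reference channel differed between the array groups about as often as the Cy5 channel did. The Cy3 signal, which came from the same pool on every array, differed between the array groups at an unadjusted limma p under 0.05 for 3462 probes (21.7%), about as many as the Cy5 signal of the mice alone with 3475 (21.8%). The Cy3 count was 285 without the slide in the model and 1765 without the cHF+ROSI array on slide 3. The pool was the same on every array, so a Cy3 difference is not one of the RNA of the animals. The Cy5 signal alone is not set against the Cy3 signal of the same spot, so differences between arrays can remain in it. The change in each channel alone is therefore given beside the change in the ratio. Without the slide in the model, there were 788 probes at an unadjusted p under 0.05, 243 higher and 545 lower. The balance between the directions depended on the scaling of the arrays. When the log ratios were only centred on their median, 288 probes were higher and 151 lower, and with the signals processed by the scanner software 148 were higher and 1612 lower. The share of Cy5 spots well above background, which stands for depth on arrays, was 30.4% to 59.3% in cHF and 50.8% to 91.1% in cHF+ROSI, the highest being that of the cHF+ROSI mouse on slide 4.

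Across functions, the lists of genes that were lower in the cHF+ROSI mice included those of fat oxidation, of endothelium and matrix, of interferon response and of blood, and the lists that were higher included those of the ribosome, of chaperones, of liver, of nerve (median 0.25) and of skin (0.14). On single slides the list median was higher on only 4 of 8 for nerve and on 3 for skin. The median log2 change over all 10435 genes was -0.01, with 4416 genes higher and 6019 lower, and this is the value against which the ratio of each list should be read. In Cy5 alone the median over all genes was -0.05, 57.6% of the genes were lower, and 671 were higher and 1623 lower at an unadjusted p under 0.05, which is the level for the Cy5 values of the lists.

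**Figure D1:**
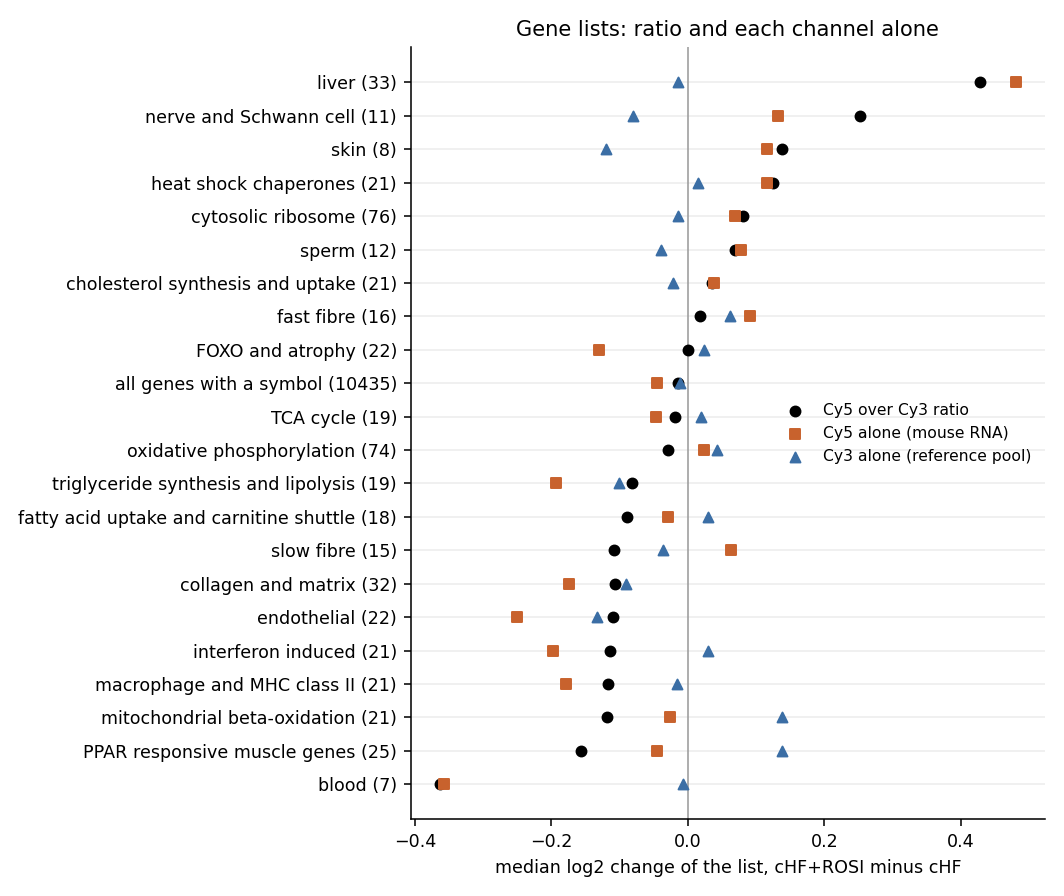
Median log2 change (cHF+ROSI minus cHF) of 22 gene lists, with the number of measured genes in parentheses. Black circles show the Cy5 over Cy3 ratio, orange squares the Cy5 signal of the mice alone and blue triangles the Cy3 signal of the common pool alone. The liver list (0.43) lies farthest to the right and the blood list (-0.36) farthest to the left. For the PPAR responsive and β-oxidation lists the Cy3 signal (0.14 for both) differed more than the Cy5 signal did (-0.05 and -0.03).

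Promoters of 3 genes with large differences are shown first, because their lower values stand at the centre of the results on fuel choice and protein breakdown. They are Pdk4 (pyruvate dehydrogenase kinase 4, which blocks glucose oxidation), Ucp3 (uncoupling protein 3, a mitochondrial carrier induced by fatty acids) and Trim63 (MuRF1, a ubiquitin ligase that marks muscle protein for degradation). The sequences are from RefSeq on GRCm38.p6, 5′ to 3′ on the strand of the gene, 250 bases before the transcription start to 50 bases after it. Capitals mark the PPAR half-site AGGTCA or the FOXO core GTAAACA, each searched on both strands. The direct repeat of 2 such half-sites with a single base between them, which contains the half-site, was searched as well.
Pdk4, chr6:5496229-5496528, minus strand: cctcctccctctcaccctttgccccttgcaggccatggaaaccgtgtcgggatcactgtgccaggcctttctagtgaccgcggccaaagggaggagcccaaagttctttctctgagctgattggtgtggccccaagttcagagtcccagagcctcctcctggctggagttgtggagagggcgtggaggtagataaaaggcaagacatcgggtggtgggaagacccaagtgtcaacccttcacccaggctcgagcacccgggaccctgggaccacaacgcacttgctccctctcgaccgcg
Ucp3, chr7:100472741-100473040, plus strand: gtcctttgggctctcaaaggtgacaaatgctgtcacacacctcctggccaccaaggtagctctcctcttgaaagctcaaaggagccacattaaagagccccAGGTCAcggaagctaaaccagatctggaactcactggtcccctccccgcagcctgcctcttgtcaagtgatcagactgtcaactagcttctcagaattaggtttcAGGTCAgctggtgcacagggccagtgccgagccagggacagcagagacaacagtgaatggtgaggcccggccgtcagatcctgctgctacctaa
Trim63, chr4:134314870-134315169, plus strand: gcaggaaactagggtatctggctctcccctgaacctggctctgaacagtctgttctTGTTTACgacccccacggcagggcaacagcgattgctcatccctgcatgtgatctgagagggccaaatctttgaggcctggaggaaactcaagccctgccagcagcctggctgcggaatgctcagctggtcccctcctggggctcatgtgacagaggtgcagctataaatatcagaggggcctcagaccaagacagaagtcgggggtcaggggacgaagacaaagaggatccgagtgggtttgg

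The Ucp3 window held the PPAR half-site at positions -149 and -44 from the start, the Trim63 window held the FOXO core on the opposite strand at position -194, and the Pdk4 window held neither in these letters. Of the 25 measured PPAR responsive genes, 20 were found in the promoter table and 5 (25%) had a half-site, against 18.1% of all 27025 genes. The direct repeat was in 0 of these 20 windows, and in 0.0481% of all. The FOXO core was in 2 of 19 FOXO and atrophy genes and in 4.05% of all genes. Fbxo32 was named without a sequence.

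Pdk4 had the largest decrease among muscle genes. Its log2 ratio lay between -0.50 and 0.53 in cHF (median 0.22) and between -1.95 and 0.07 in cHF+ROSI (median -0.54). It was lower on 7 of 8 slides and 4 of the 8 cHF+ROSI mice lay below the lowest cHF mouse, although the groups overlapped. The change was -0.84 (SE 0.33; limma p 0.0198, adjusted p 0.386; probe at chr6:5433441-5433500 of mm8, minus strand). In Cy5 alone it was -0.60 and in Cy3 alone 0.25. It rested in part on 1 mouse, being -0.60 without the cHF+ROSI mouse on slide 2, and its unadjusted p exceeded 0.05 without that mouse or the one on slide 3.

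Ucp3 was lower in the cHF+ROSI mouse on all 8 slides. Its log2 ratio was -0.61 to 0.54 in cHF (median -0.28) and -1.42 to -0.04 in cHF+ROSI (median -0.81), and 6 cHF+ROSI mice were below every cHF mouse. The change of -0.61 (SE 0.22; limma p 0.0108, adjusted p 0.339; chr7:100359864-100359923 of mm8, plus strand) was -0.39 in Cy5 and 0.23 in Cy3. Without slides 1 to 3, whose cHF arrays were the dimmest, it was -0.284.

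Most other genes that PPARs are known to induce in muscle were lower as well, by less. Of the 25 measured of 29 listed, 2 were higher and 23 lower, with 0 higher and 11 lower at an unadjusted p under 0.05, and their median change was -0.16. Acot1, a thioesterase that releases free fatty acids from acyl-CoA, had log2 ratios of -0.17 to 0.69 in cHF (median 0.22) and -0.55 to 0.67 in cHF+ROSI (median -0.21). These groups overlapped, the change was -0.37 (limma p 0.0257) and in Cy5 it was -0.58. Fabp3, the fatty acid binding protein of muscle, was lower by ratio (-0.28, limma p 0.0466) but not in Cy5 alone (0.05), the Cy3 signal having differed by 0.29. Angptl4, an inhibitor of lipoprotein lipase, changed by -0.50 (limma p 0.13) and Plin5, a lipid droplet protein, by -0.25 (limma p 0.085). The 2 members that were higher were Txnip (0.20), an inhibitor of glucose uptake, and Plin2 (0.05), another lipid droplet protein.

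In the Cy5 signal alone the PPAR responsive genes showed much less of a common direction. In Cy5, 10 of the 25 were higher and 15 lower, with 2 in each direction at an unadjusted p under 0.05, and the median was -0.05, at the level of all genes in Cy5. In Cy3, 18 were higher and 7 lower, with 7 and 0 past this threshold, and the median was 0.14. On single slides the list was higher in the cHF+ROSI mouse on 1 and lower on 7, and the difference of list medians was -0.17 ± 0.16 (SD, n = 8 slides). Over all alternatives run its median stayed below 0, between -0.223 and -0.0458. Several of these, such as the fit without the slide as a block, leave the median as it is (-0.157). Without the slide as a block 7 members were lower at an unadjusted p under 0.05, without slides 1 to 3 there were 9, with median centring 6, and by the methods' t-test 5.

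**Figure D2:**
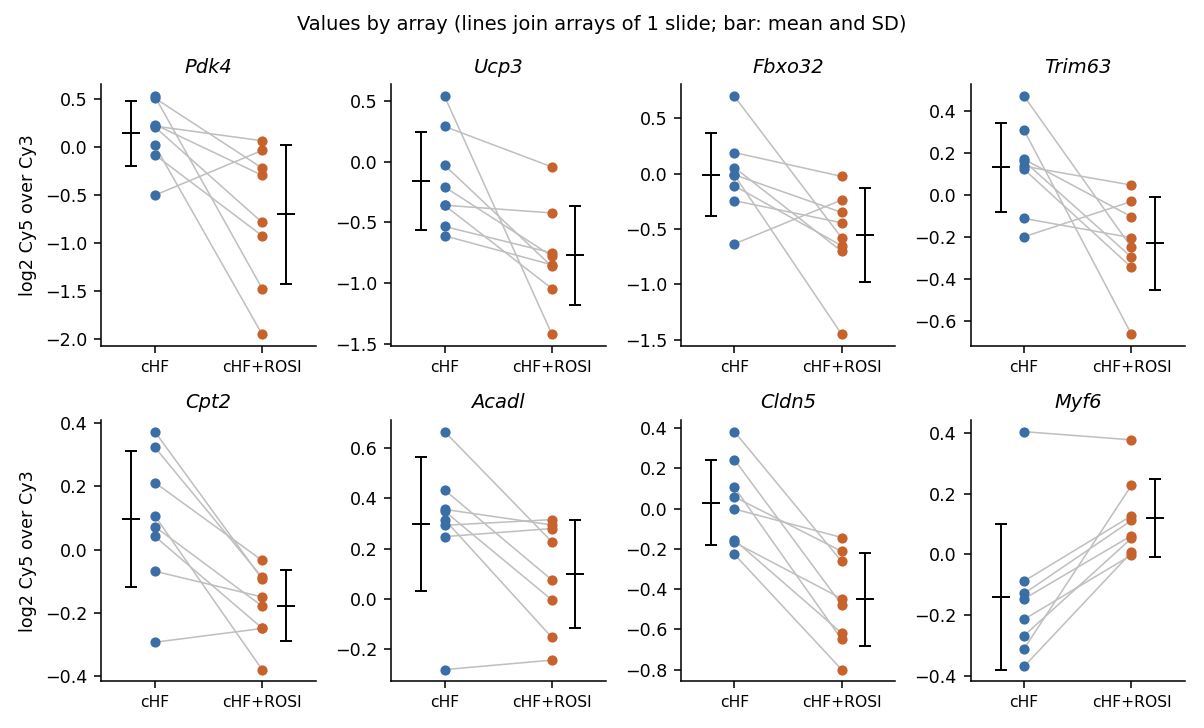
Log2 Cy5 over Cy3 ratio of 8 genes on each of the 8 cHF and 8 cHF+ROSI arrays, where lines join the 2 mice of a slide. Ucp3 and Cldn5 were lower in the cHF+ROSI mouse on all 8 slides, and Pdk4, Fbxo32, Trim63 and Cpt2 on 7 of 8, whereas Myf6 was higher on 7. Acadl was lower on 5 slides.

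All 21 measured genes of mitochondrial β-oxidation had a lower ratio in the cHF+ROSI mice, 8 of them at an unadjusted p under 0.05, and the median change was -0.12. Cpt2, which rebuilds acyl-CoA from acylcarnitine inside the mitochondrion, had the smallest p of the list. Its log2 ratio was -0.29 to 0.37 in cHF (median 0.09) and -0.38 to -0.03 in cHF+ROSI (median -0.16), the ranges overlapping in spite of a lower value on 7 of 8 slides. The change was -0.27 (SE 0.05; limma p 5.99e-05, adjusted p 0.132), with -0.25 in Cy5 and 0.03 in Cy3. Hadhb, the thiolase subunit of the trifunctional protein, was lower by 0.23 (limma p 0.00861; Cy5 -0.10), and Acaa2, the last enzyme of the cycle, changed by -0.17 (limma p 0.0198).

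For other members the reference channel differed more than the Cy5 channel did. Acadl, the long-chain acyl-CoA dehydrogenase, changed by -0.20 (limma p 0.00372), but by 0.26 in Cy5 and 0.50 in Cy3. Etfdh, which passes electrons from the acyl-CoA dehydrogenases to the respiratory chain, changed by -0.18 (limma p 0.0101), with 0.31 in Cy5 and 0.45 in Cy3, and a second probe gave -0.02. In Cy5 alone 10 of the 21 genes were higher and 11 lower (52.4%, against 57.6% of all genes), 1 in each direction at an unadjusted p under 0.05. The slides differed in this respect. All 21 genes were lower in the cHF+ROSI mouse on slides 4 and 8, while 15 were higher on slide 1 and 12 on slide 2, and the list median differed by -0.07 ± 0.18 (SD, n = 8 slides). Without the block 4 members were lower at an unadjusted p under 0.05, with median centring 1 (85.7% of the list being lower), and by the methods' t-test 1.

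Uptake and storage of fat differed less. Of 18 genes of fatty acid uptake and the carnitine shuttle, 5 were higher and 13 lower, 4 of these at an unadjusted p under 0.05. Cpt1b, the muscle enzyme that commits fatty acids to oxidation, changed by -0.16 (limma p 0.00747), and by -0.10 (limma p 0.0167) with a second probe. Of 19 genes of triglyceride synthesis and lipolysis, 4 were higher and 15 lower, 3 of them at this threshold. Pnpla2, the adipose triglyceride lipase, was at -0.20 (limma p 0.00507) with Cy5 at 0.23 and at -0.10 (limma p 0.112) with its second probe, for which Cy5 was -0.29. Adipocyte genes, which mark fat between the fibres and are the classical site of the drug, were 8 higher and 14 lower of 22, with 1 in each direction at an unadjusted p under 0.05. Adipoq, the adipocyte hormone adiponectin, was at -0.11 (limma p 0.776), Fabp4 at -0.08 and Plin4 at -0.26 (limma p 0.0347). Pparg itself was at 0.23 (limma p 0.00853), with 0.04 in Cy5 and -0.17 in Cy3, and was higher on 5 of 8 slides.

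**Figure D3:**
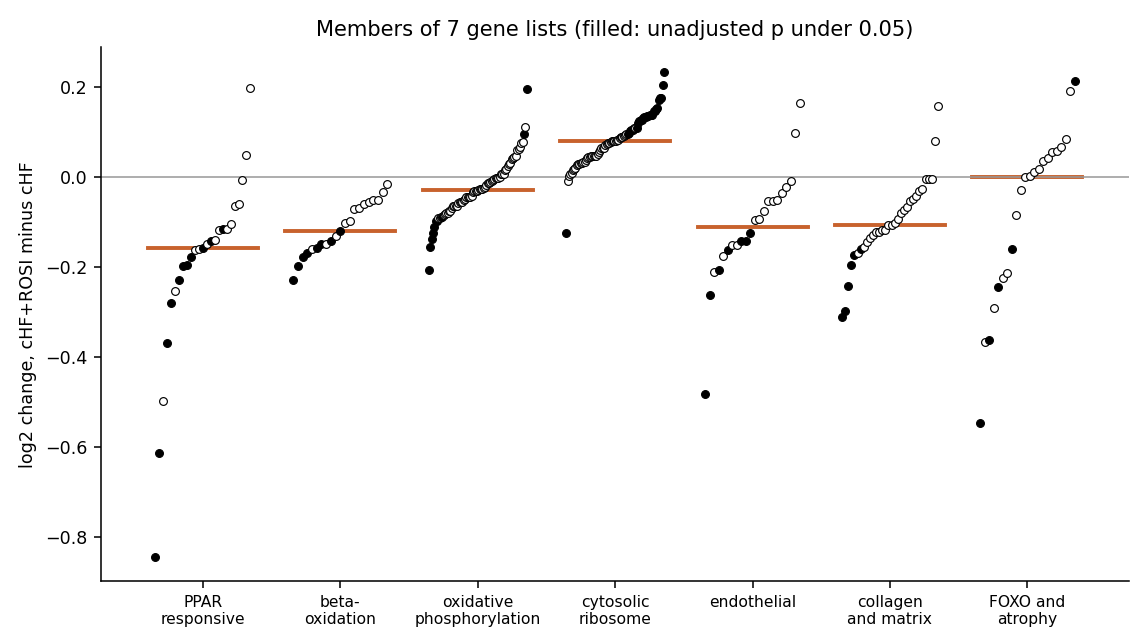
Log2 change (cHF+ROSI minus cHF) of every measured gene in 7 lists. Filled points had an unadjusted p under 0.05 and the line is the median of the list. All 21 β-oxidation genes lie below 0 and 74 of 76 cytosolic ribosome genes above it, while the FOXO and atrophy genes are spread over both sides with Fbxo32 (-0.55) lowest.

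Both well-known ubiquitin ligases of muscle atrophy were lower in the cHF+ROSI mice. Fbxo32 (atrogin-1) had log2 ratios of -0.63 to 0.70 in cHF (median -0.01) and of -1.45 to -0.02 in cHF+ROSI (median -0.51). It was lower on 7 of 8 slides, with 3 cHF+ROSI mice below the lowest cHF mouse. The change was -0.55 (SE 0.21; limma p 0.0195, adjusted p 0.385; chr15:58010280-58010339 of mm8, minus strand), with -0.62 in Cy5 and -0.05 in Cy3. Its unadjusted p exceeded 0.05 without the cHF mouse on slide 8 or the cHF+ROSI mouse on slide 6 (-0.389), and without slides 1 to 3 the change was -0.846. Trim63 ranged from -0.20 to 0.47 in cHF (median 0.15) and from -0.66 to 0.05 in cHF+ROSI (median -0.23). It too was lower on 7 slides and 5 cHF+ROSI mice were below all cHF mice, with a change of -0.36 (SE 0.13; limma p 0.0112), -0.32 in Cy5 and 0.04 in Cy3. A second probe gave -0.28 (limma p 0.163).

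The FOXO and atrophy list as a whole had no direction. Of its 22 measured genes 11 were higher and 11 lower, 1 and 4 of them at an unadjusted p under 0.05, and the median was 0.00 by ratio and -0.13 in Cy5. Asb2, a ubiquitin ligase subunit that limits muscle mass, was lower on all 8 slides (-0.24, limma p 0.0185), and the related Asb5 was at 0.21 (limma p 0.00626). Ddit4 (REDD1), an inhibitor of mTOR that fasting induces, was below its cHF neighbour on all 8 slides, with a change of -0.37 (limma p 0.0892). Mstn (myostatin) was at 0.19 (limma p 0.073) and Foxo1 at 0.02. The proteasome list had 14 genes higher and 17 lower of 31, with 1 in each direction at this threshold.

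Genes that govern the entry of pyruvate into the mitochondrion were few and mixed. Of 11 genes of the pyruvate dehydrogenase complex 4 were higher and 7 lower, 0 and 3 of them at an unadjusted p under 0.05. Besides Pdk4 these were Pdk2, another kinase of the complex, with -0.20 (limma p 0.00696) in the ratio and -0.20 in Cy5, and Mpc2, a subunit of the pyruvate carrier, with -0.08 in the ratio and 0.31 in Cy5. The respiratory chain differed little: of 74 genes of oxidative phosphorylation 21 were higher and 53 lower, 2 and 8 at an unadjusted p under 0.05, with a median of -0.03 (0.02 in Cy5). Ndufv1, a subunit of complex I, was at -0.16 (limma p 0.00143), and Cox6a2, the muscle form of a complex IV subunit, at 0.19 (limma p 0.00427). In the TCA cycle 5 genes were higher and 14 lower of 19. Fh1, fumarate hydratase, was lower on all 8 slides (-0.15, limma p 0.00121), although in Cy5 alone it was at -0.06.

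Genes of glucose use and of fast fibres differed little, and those of slow fibres differed in direction between slides. Glucose uptake and glycolysis had 15 genes higher and 8 lower of 23, with 2 and 1 at an unadjusted p under 0.05, and glycogen metabolism 6 and 12 of 18, with 0 and 1. The tissue was muscle by its own markers. All 15 slow fibre genes with a probe (16 listed) and 16 of 16 fast fibre genes were bright enough to be measured. Of the 15 slow fibre genes 5 were higher and 10 lower, with a median of -0.11 by ratio and 0.06 in Cy5, but 1 was higher and 0 lower at an unadjusted p under 0.05. On the slow fibre list, Myh7 (-0.50, limma p 0.108), the slow myosin heavy chain, and Myh6 (-0.52, limma p 0.0501), the cardiac alpha heavy chain, had low ratios. Myl3, the slow light chain, was at 0.15 (limma p 0.0191). The 16 fast fibre genes, 10 higher and 6 lower, had a median of 0.02. The fast fibre gene Tnnc2, troponin C of fast fibres, was at 0.14 (limma p 0.0198) and Myh4, the fastest myosin, at 0.01. The insulin signalling list (9 higher and 15 lower of 24) had 1 gene higher and 3 lower at an unadjusted p under 0.05. In the AMPK and LKB1 list (6 and 9 of 15) there were 1 and 4. Prkag3, the AMPK subunit of glycolytic fibres, was at 0.31 (limma p 0.0108). Stk11ip, a partner of the kinase LKB1, was lower on all 8 slides (-0.22, limma p 0.00102; Cy5 -0.37), and 7 cHF+ROSI mice lay below the lowest cHF mouse.

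The cytosolic ribosome was the list with the most even shift upwards. Of 76 measured genes 74 were higher and 2 lower, with 30 higher and 1 lower at an unadjusted p under 0.05, against the 3.37% and 6.87% of all genes given above. The size was small, a median of 0.08 (0.07 in Cy5 and -0.01 in Cy3). The list median of an array lay between -0.09 and 0.03 in cHF (median -0.04) and between -0.02 and 0.19 in cHF+ROSI (median 0.02). It was higher in the cHF+ROSI mouse on 7 of 8 slides, the difference being 0.09 ± 0.06 (SD, n = 8 slides). In Cy5 alone the split was 44 higher and 32 lower, with 21 and 2 at an unadjusted p under 0.05, where 57.6% of all genes were lower. The count depended on the processing. Centring the arrays on their median in place of loess left a median of 0.0162 with 0 genes at this threshold, normexp fitted on all spots 0.0196 with 8 higher, and the signals processed by Feature Extraction 0.0395 with 3 higher. Without the block 12 genes were higher and 1 lower.

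Ribosomal protein transcripts start with a run of pyrimidines (the TOP motif) through which the mTOR pathway controls their translation. The start of Rps18, the ribosomal gene with the smallest p, is shown for that reason (first 30 bases, RefSeq, GRCm38.p6, chr17:33955636-33955665, minus strand), with the run of 9 pyrimidines in capitals.
Rps18: CTCTCTTCCacaggaggcctacacgccgcc
A TOP start, here a C followed by at least 4 further pyrimidines, was found in 14 of the 56 ribosomal genes in the promoter table (25%) and in 3.01% of all genes.

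Rps18 was higher on all 8 slides. Its log2 ratio was -0.49 to 0.05 in cHF (median -0.13) and -0.28 to 0.43 in cHF+ROSI (median 0.06), so that the groups overlapped and the regularity lay within slides. The change was 0.20 (SE 0.04; limma p 0.000159, adjusted p 0.154), with 0.07 in Cy5 and -0.05 in Cy3, and a second probe gave 0.10 (limma p 0.0137). Rps12, of the small subunit, was at 0.23 (limma p 0.000713; Cy5 0.42, Cy3 0.18) and Rpl4, of the large subunit, at 0.17 (limma p 0.00162; Cy5 0.13). Rpl21 went the other way on all 8 slides (-0.12, limma p 0.0299). Ribosomal genes have many processed copies in the genome, so their probes may take signal from several of them.

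**Figure D4:**
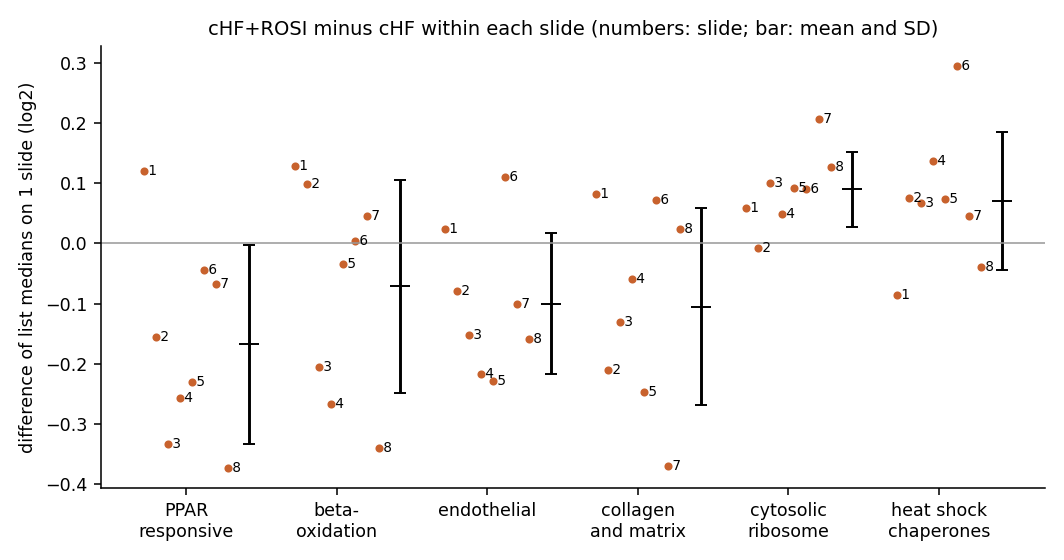
Difference between the cHF+ROSI and the cHF array of a slide in the median log2 ratio of 6 gene lists, 1 point per slide with its number, and the mean with the SD over 8 slides. The cytosolic ribosome was higher on 7 of 8 slides (0.09 ± 0.06) and the PPAR responsive genes lower on 7 (-0.17 ± 0.16), while the β-oxidation genes were higher on 4 and lower on 4.

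Genes of the endothelium, the lining of vessels, were lower in the cHF+ROSI mice, and more so in the Cy5 signal alone than in the ratio. Of 22 genes 2 were higher and 20 lower, 7 of the latter at an unadjusted p under 0.05. The median was -0.11 by ratio, -0.25 in Cy5 and -0.13 in Cy3, where 6 of these genes were lower at this threshold. Cldn5, the tight junction protein of endothelial cells, had log2 ratios of -0.23 to 0.38 in cHF (median 0.03) and -0.80 to -0.14 in cHF+ROSI (median -0.46). It was lower on all 8 slides, 6 cHF+ROSI mice were below every cHF mouse, and the change was -0.48 (SE 0.09; limma p 5.68e-05, adjusted p 0.132; chr16:18691516-18691575 of mm8, plus strand), with -0.73 in Cy5 and -0.20 in Cy3. The VEGF receptors Kdr and Flt1 were at -0.26 (limma p 0.00657) and -0.21 (limma p 0.0124), and the angiopoietin receptor Tek at -0.14 (limma p 0.00875). The difference in ratio for Kdr was mostly in the Cy3 signal (Cy5 -0.08, Cy3 0.28), and the other probes of Flt1 gave -0.09 and -0.01.

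Matrix genes followed the same direction. Of 32 collagen and matrix genes 2 were higher and 30 lower, 6 at an unadjusted p under 0.05, with a median of -0.11 (-0.17 in Cy5 and -0.09 in Cy3). Col4a1, a collagen of basement membranes, ranged from -0.21 to 0.41 in cHF (median 0.20) and from -0.50 to 0.17 in cHF+ROSI (median -0.03). It was lower on all 8 slides, by 0.30 in the fit (limma p 0.00256), and its second probe gave -0.17 (limma p 0.0357). Col5a3, a collagen V chain, was at -0.31 (limma p 0.0056) and Lamb2, a laminin chain, at -0.24. Within slides the list differed by -0.10 ± 0.16 (SD, n = 8 slides), lower on 5 and higher on 3. Without the cHF+ROSI mice on slides 7 and 8, which carried sperm transcripts, 5 matrix and 4 endothelial genes were lower at an unadjusted p under 0.05.

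Of the 21 interferon induced genes 3 were higher and 18 lower, 6 of them at an unadjusted p under 0.05, and the median was -0.11 (-0.20 in Cy5 and 0.03 in Cy3). Rtp4 ranged from -0.12 to 0.34 in cHF (median 0.10) and from -0.63 to -0.02 in cHF+ROSI (median -0.21), with 5 cHF+ROSI mice below all cHF mice and a change of -0.35 (limma p 0.00322; Cy5 -0.61). Tap1, the peptide transporter of antigen presentation, was lower on all 8 slides (-0.22, limma p 0.00309). Of the 20 lymphocyte genes with a probe (21 listed) only 5 were bright enough. Gimap1, a GTPase of lymphocytes, was at 0.05 to 0.37 in cHF (median 0.21) and at -0.20 to 0.07 in cHF+ROSI (median -0.10), lower on all 8 slides with a change of -0.29 (limma p 0.000121, adjusted p 0.146; Cy5 -0.47). The macrophage and MHC class II list had 4 genes higher and 17 lower of 21, with 0 at an unadjusted p under 0.05. Of 7 measured blood genes all were lower, 2 at this threshold, with a median of -0.36 in both the ratio and Cy5. Hba-a1, α-globin, was at -0.44 (limma p 0.0395), but 1 cHF mouse reached 1.09. The part of blood, vessel or matrix content of the muscle pieces in these differences was not tested.

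Sterol and fatty acid synthesis genes were higher in places. Srebf1, the transcription factor through which insulin raises lipid synthesis, had log2 ratios of -0.71 to -0.12 in cHF (median -0.24) and of -0.39 to 0.26 in cHF+ROSI (median 0.12). It was higher on 7 of 8 slides and 6 cHF+ROSI mice exceeded every cHF mouse, with a change of 0.32 (limma p 0.00358; Cy5 0.18, Cy3 -0.15). Without slides 1 to 3 it was 0.146, with an unadjusted p over 0.05. Of its targets, the desaturase Scd1 was at 0.03 (limma p 0.911), the fatty acid synthase Fasn at 0.02 and Pnpla3 at -0.25 (limma p 0.0366), and of the 15 measured genes of the list 10 were higher and 5 lower, 1 and 2 at an unadjusted p under 0.05. Of 21 cholesterol genes 15 were higher and 6 lower, 3 and 1 of them at an unadjusted p under 0.05. Hsd17b7, an enzyme of the pathway, was at 0.20 (limma p 0.0183).

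Among PPAR receptors and their partners 3 genes were higher and 3 lower of 22 at an unadjusted p under 0.05. Ppara was at -0.01 and the coactivator Ppargc1a at 0.05. The corepressor Nrip1 was at 0.31 (limma p 0.00842), but its other probes gave -0.26 and 0.20. Of the 18 measured genes that the study followed by qRT-PCR, part of which had been picked on these arrays, 6 were higher and 12 lower, 1 and 4 at an unadjusted p under 0.05. Among 12 NAD genes, 4 higher and 8 lower, Nampt, the rate-limiting enzyme of NAD salvage, was at 0.25 (limma p 0.0015; Cy5 0.43), and its second probe at 0.12 (limma p 0.0697).

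Of 15 genes of the circadian clock 9 were higher and 6 lower, with a median of 0.02, and 3 and 1 were at an unadjusted p under 0.05. Dbp (0.53, limma p 0.0224), Per1 (0.25, limma p 0.0431) and Per2 (0.28, limma p 0.0179), which are known to share a phase, were the higher ones, and Arntl (Bmal1), which peaks opposite to them, was at -0.29 (limma p 0.035). Dbp lay between -1.48 and 0.03 in cHF (median -0.42) and between -0.50 and 0.62 in cHF+ROSI (median -0.03). The groups overlapped. When single arrays were left out, the unadjusted limma p stayed under 0.05 in 13 of 16 fits for Dbp, 14 for Per2, 8 for Arntl and 6 for Per1, and without the block it was 0.0545 for Arntl and 0.108 for Per1. Without slides 1 to 3 Dbp was at 0.344. A shift of phase was not tested. The hour at which each animal was dissected was not used here.

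Of the 21 heat shock chaperones 16 were higher and 5 lower, 3 and 0 at an unadjusted p under 0.05, with a median of 0.125 (0.116 in Cy5). Hspa1a (HSP70) ranged from -0.96 to 2.07 in cHF (median -0.66) and from -0.83 to 1.48 in cHF+ROSI (median 0.66), a change of 0.67 (limma p 0.0382). A single cHF mouse, on slide 1, held the highest value of both groups. Without the block 0 chaperones were at an unadjusted p under 0.05. Atf3, a stress-induced transcription factor, was at 0.67 (limma p 0.0171) and Ddit3 (CHOP) at 0.26 (limma p 0.000888), whereas Klf4, another early response gene, was at -0.37 (limma p 0.0167). The ATF4 list (4 higher and 10 lower of 14), the immediate early list (10 and 10 of 20) and the antioxidant list (6 and 18 of 24) each had at most 1 gene in either direction at an unadjusted p under 0.05.

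The genes with the smallest p-values came from several functions. Among the higher ones Myf6 (MRF4), a myogenic transcription factor of mature fibres, had log2 ratios of -0.37 to 0.40 in cHF (median -0.18) and of -0.0023 to 0.38 in cHF+ROSI (median 0.09). It was higher on 7 of 8 slides, and 1 cHF mouse held the highest value. The change was 0.26 (SE 0.05; limma p 4.98e-05, adjusted p 0.132), with 0.24 in Cy5 and -0.03 in Cy3. Plekhb1 was at 0.19 (limma p 4.76e-05) but at 0.08 in Cy5, and Denr, a factor that acts on ribosomes after termination, was at 0.19 (limma p 9.32e-05) with -0.02 for its second probe. Ybx1, an RNA-binding protein, was at 0.19 (limma p 0.000304), and 3 further probes gave 0.07, 0.08 and 0.09. The remaining 6 of the 10 were Thap2, Rps18, Kcna6, Mgme1, Ppp1r14b and Arl6ip6, with changes of 0.20 to 0.26.

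Among the lower ones Tcirg1, a subunit of the proton pump of lysosomes and osteoclasts, ranged from -0.16 to 0.03 in cHF (median -0.07) and from -0.46 to -0.09 in cHF+ROSI (median -0.33). Of the 8 cHF+ROSI mice 7 lay below the lowest cHF mouse, and the change was -0.27 (SE 0.05; limma p 3.07e-05, adjusted p 0.132), with -0.31 in Cy5. Vwa8, a mitochondrial AAA ATPase, was lower on all 8 slides with both of its probes (-0.27, limma p 5.84e-05, and -0.18, limma p 8.88e-05). Ackr1, a chemokine receptor of venules and red cells, was lower on all 8 slides as well (-0.23, limma p 6.59e-05; Cy5 -0.35). Mepce (-0.20), Chst7 (-0.26) and P4htm (-0.26) followed, and Tmem191c was at -0.34 (limma p 0.000124) by ratio but at 0.16 in Cy5. Over all 15958 probes the 2 groups did not overlap for 3 (0.0188%), namely 1 without a gene name (0.16), Gcc2 (-0.23), a Golgi protein, and Iba57 (-0.27), which acts in iron-sulphur assembly, and these were singled out by that property.

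Most of the large increases were in transcripts of liver, not of muscle. Of the 19 probes that were higher by at least 1.5-fold, 8 were on the liver list, namely those of Apoa2 (0.77), Mup5 (0.83), Mup1 (0.85, 0.93 and 1.53), Alb (0.96), Apoc1 (0.98) and Mup4 (1.07), the Mup genes being so alike that their probes may take signal from each other. Genes not on the list that are also best known from liver metabolism included Akr1c6 (0.60), Cyp2d26 (0.60), Uox (0.65) and Fbp1 (0.77). Others were 2 probes of Hspa1a (0.64 and 0.67), Atf3 (0.67), Prm1 (1.40, limma p 0.0461, with 0.43 and 1.05 for its other probes), a protamine of sperm, and 2 without a name (0.99 and 1.04). Just short of the threshold were Cyp3a41a (0.57), Cyp2e1 (0.56) and Serpinc1 (0.55). Of the 3 probes lower by at least 1.5-fold, the one beside Pdk4 and Ucp3 was Hp (haptoglobin, -0.87), a plasma protein made by liver and fat. Its log2 ratio was -0.75 to 1.49 in cHF (median -0.25) and -1.27 to 0.21 in cHF+ROSI (median -1.10), and 6 cHF+ROSI mice lay below all cHF mice.

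The liver transcripts were high in particular mice. Alb, serum albumin, lay between -2.63 and -0.37 in cHF, and in the cHF+ROSI mice on slides 1 to 8 it was at -2.43, 1.56, -0.42, -1.08, 0.37, -2.75, 0.60 and 1.52. The mice on slides 2, 5, 7 and 8 were thus above every cHF mouse, and that on slide 6 was below all of them. The brightest Mup1 probe, for major urinary proteins secreted by the liver, was at -4.15 to -0.75 in cHF (median -1.50) and in the same order at -2.64, 1.43, 0.22, -1.61, 0.99, -3.80, 0.70 and 2.04. Of 33 measured liver genes, 28 were higher and 5 lower in the comparison, 11 and 1 at an unadjusted p under 0.05, with a median of 0.43 in the ratio and 0.48 in Cy5. These 33, of 63 with a probe, passed a filter on the mean signal to background ratio over all arrays. A dim gene could thus be kept through the mice in which it was high, so the filter can have shaped the split and the counts by mouse. At a ratio of at least 3, 19 genes were left, with a median of 0.563. Counted by mouse, 25, 23, 24 and 28 of the 33 were above the highest cHF mouse on slides 2, 5, 7 and 8, 9 on slide 3, and 1 each on slides 1, 4 and 6.

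Some sperm transcripts were high in 2 of the same mice, and skin and nerve transcripts mainly in other mice. Prm1 was at most -0.64 in cHF but at 1.14 and 3.53 in the cHF+ROSI mice on slides 7 and 8, and Prm2 (1.07 and 3.02), Tnp1 (0.94 and 2.48), which packs sperm chromatin, and Odf2 (0.44 and 1.92), of the sperm tail, were high in the same mice. Without these mice the change of Prm1 was 0.315 (limma p 0.512). Of 38 listed sperm genes 12 were measured, 10 higher and 2 lower, 2 and 1 at an unadjusted p under 0.05, with a median of 0.07. The limit given above for the filter on dim genes applies to the sperm, skin and nerve lists as well. By mouse, 8 of the 12 were above the highest cHF mouse on slide 8. This number was 5 on slides 4 and 7, 4 on slides 1 and 6, 2 on slide 5, and 1 on slides 2 and 3. Lor, loricrin of the outer skin, was at 1.89 in the cHF+ROSI mouse on slide 1, and all 8 measured skin genes exceeded the highest cHF mouse there. Of 11 nerve genes 10 were higher and 1 lower, 0 of them at an unadjusted p under 0.05. On slides 1, 2, 6 and 7 at least 10 were higher in the cHF+ROSI mouse than in the cHF mouse of the slide. On slides 3, 4 and 8 at least 9 were lower. The nerve list median was higher on 4 slides and lower on 4, with a difference of 0.23 ± 0.71 (SD, n = 8 slides). Above the highest cHF mouse there were 5 on slides 1 and 6, 2 on slide 2, 1 on slide 4 and 0 on slides 3, 5, 7 and 8. The nerve list median reached 0.71 in 1 cHF mouse and 0.76 in cHF+ROSI. Of the neutrophil list 1 of 12 genes was bright enough.

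**Figure D5:**
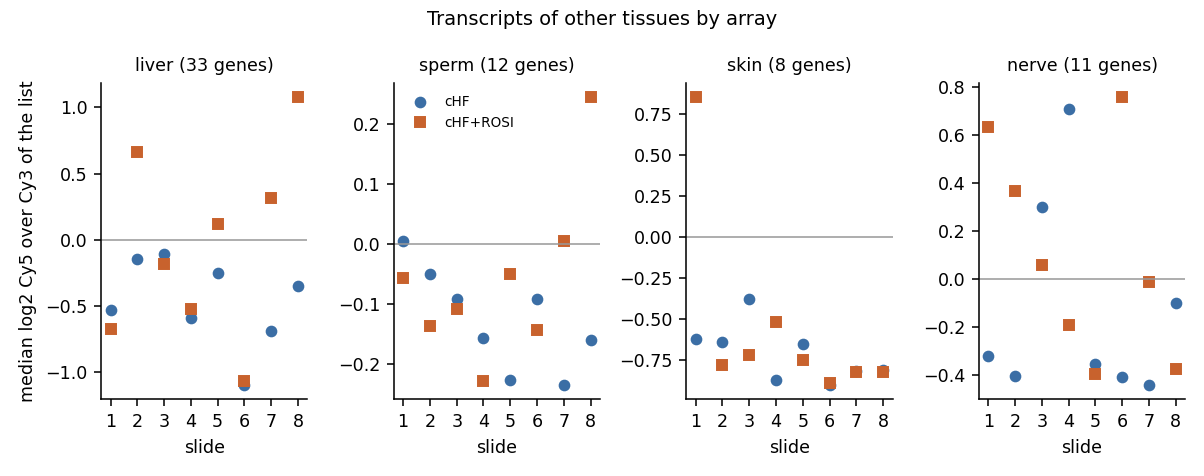
Median log2 Cy5 over Cy3 ratio of the liver, sperm, skin and nerve lists on each array, by slide, for cHF (circles) and cHF+ROSI (squares). The liver list was above all cHF arrays in the cHF+ROSI mice on slides 2, 5, 7 and 8, the sperm list was highest on slide 8 and the skin list on slide 1.

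The counts were recomputed with the genes of the liver, sperm, skin, nerve and blood lists left out. Of the remaining 10364 genes 338 were higher and 713 lower at an unadjusted p under 0.05, and those past 1.5-fold were 7 higher and 2 lower, against 14 and 3 with all genes, the latter being Pdk4 and Ucp3. Without the cHF+ROSI mice on slides 7 and 8, a choice made after seeing the sperm transcripts, 10 probes were past both thresholds, 6 higher and 4 lower. The liver list then had a median of 0.173 with 1 gene in each direction at an unadjusted p under 0.05. The PPAR responsive list had a median of -0.166 with 10 genes lower, the β-oxidation list -0.1 with 5 and the ribosome list 0.0617 with 16 higher and 1 lower, and Pdk4 was at -1.08. How liver, sperm or skin transcripts came into the muscle RNA was not tested.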

How the data were processed

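The authors hybridised the RNA of single mice (Cy5) with a common pool (Cy3) to two-colour Agilent whole mouse genome arrays. Per the file headers, the deposited scanner files give, for both dyes, linear intensity values of every spot and of its surroundings, quantified by Feature Extraction version 10.5.1.1 (10.5.5.1 in the submitters' processing notes). A table deposited for the whole series has no columns for cHF+ROSI, and its 24 columns were not used. Groups were taken from the labels and slides from the file headers.

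The surroundings were taken off median spot signals with normexp (offset 50), log2 ratios were normalized within arrays by loess (span 0.3), and spots of a probe were averaged. At most 12 spots per array had a local background more than 10 units above their signal. Fitted on all spots, normexp gave a background mean of -762 in Cy5 for the cHF+ROSI array on slide 2, and the log ratios of its 3000 dimmest probes had an SD of 0.0111. The fit therefore left out spots below -10, after which this SD was 0.188 to 0.254 in cHF+ROSI. Of 45018 spots, 43379 were not controls and represented 41174 probes. Probes with a mean ratio of signal to background of at least 2 in both channels and at least 4 unflagged arrays in each group were kept (15958). Of these, 12624 were named by accession through RefSeq, 2228 by the scanner file only, and 1106 had no name. Probe coordinates are those of mm8, promoters those of GRCm38.p6.

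Ratios of all 24 arrays were compared by limma 3.58.1 (R 4.3.3, data.table version 1.17.8; two-sided; Benjamini-Hochberg over all kept probes) with the slide as a block. Deviations of the cHF and cHF+ROSI arrays of a slide correlated at 0.046 to 0.602, over 0.1 on 6 of 8 slides. No 2 arrays held identical values. Each replicate was 1 mouse; the mice shared cages, so replicates of a group may come from the same cage. The number of arrays limits the precision (median SE 0.0577). Each channel alone was tested after quantile normalization. The calculations were tested on simulated data.

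Gene lists were described by counts and medians without a test. The comparison, the lists and the tests were chosen with earlier results of these data known. Genes were named when past 1.5-fold at an unadjusted p under 0.05 or just short of it, when among the 10 smallest p-values of a direction (well above background on at least 12 arrays), as the list members with the largest changes (at most 5 at an unadjusted p under 0.05, otherwise 2), or when followed by qRT-PCR in the study; a few others are named beside them for their role. Some genes that this rule names are not reported here.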

Additional observations from a re-analysis of the deposited data

Results flagged for a closer look

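Of 60 sets of values looked at for a mouse far from the other 7, each set being 1 list or probe in 1 group, 4 had one, where chance flags about 1 in 20. The collagen and matrix list had a median log2 ratio of -0.382 in the cHF+ROSI mouse on slide 7. Hspa1a stood at 2.30 and 2.07 by its 2 probes in the cHF mouse on slide 1, far above the other cHF mice. Apoc1, an apolipoprotein on the liver list, was at -2.01 in the cHF mouse on slide 6. No explanation of these values was tested.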

How the results depend on the processing

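The number of probes called at an adjusted p under 0.05 was 0 in most alternatives, but 1 with Cy5 alone (Gm5766), 25 without the filter on dim probes, 1 with a signal to background ratio of at least 3 (without a gene name), and 0 to 2 when single arrays were left out (Tcirg1 without cHF replicate 8; Cpt2 and Cep131 without cHF+ROSI replicate 1). The 22 probes past 1.5-fold became 52 with the signals processed by Feature Extraction, 46 with median centring, 178 with Cy5 alone, 12 at a ratio of at least 3, 9 by the methods' t-test, 58 without slides 1 to 3, 10 without cHF+ROSI replicates 7 and 8, and 15 to 46 without single arrays (46 without cHF+ROSI replicate 1). The 256 probes with the same sign on all slides became 43 with median centring, 491 with Cy5 alone and 1002 without the filter. Without the replicate block 0 probes were called, 788 had an unadjusted p under 0.05 and 21 were past 1.5-fold, and the Cy3 count of 3462 became 285; that count was 1765 to 4477 without single arrays (1979 without cHF+ROSI replicate 2, 1765 without replicate 3).

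List medians that moved by more than the SD of the differences between slides were the ribosome (0.0162 with median centring), endothelium (-0.251) and FOXO (-0.13) with Cy5 alone, oxidative phosphorylation (-0.0961 with median centring, -0.109 with normexp fitted on all spots, added after seeing the data) and sperm (0.259 at a ratio of at least 3). Among those that moved by over 1.5 times within that SD were PPAR responsive (-0.0458), β-oxidation (-0.0269) and matrix (-0.174) with Cy5 alone, liver (0.774) and ribosome (0.0395) with Feature Extraction signals, and the ribosome with normexp on all spots (0.0196). Without single arrays the medians ranged from -0.193 to -0.126 (PPAR responsive), -0.154 to -0.0898 (β-oxidation), -0.0481 to -0.0151 (oxidative phosphorylation), -0.048 to 0.0128 (FOXO), 0.0706 to 0.091 (ribosome), 0.0648 to 0.164 (heat shock), -0.122 to -0.0864 (endothelium), -0.14 to -0.0723 (matrix), 0.285 to 0.606 (liver) and 0.0393 to 0.118 (sperm). Over all alternatives the PPAR responsive, β-oxidation, endothelial and matrix medians stayed below 0 and the ribosome, heat shock and liver medians above 0. Several alternatives, such as the fit without the block, leave list medians unchanged or nearly so. The signs of the medians are not relative to all genes. With Cy5 alone all genes were at -0.0451, so that the PPAR responsive list lay at that level and the β-oxidation list above it. With median centring all genes were at 0.0105, near the 0.0162 of the ribosome, which had 0 genes at an unadjusted p under 0.05.

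With Cy5 alone 13 named genes had the opposite sign: Tmem191c (0.159), Fabp3 (0.0476), Acadl (0.263), Pnpla2 (0.234), Etfdh (0.308), Mtor (0.155), Stat2 (0.153), Fech (0.298), Naprt (0.00803), Stradb (0.31), Mpc2 (0.311), Rpl14 (-0.0436) and Dkkl1 (-0.0427). With the signals of Feature Extraction Idi1 (-0.114) and Thap2 (-0.083) had. The causes were not tested, and signals near background limit the dim probes.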
